A study of Mus musculus with 3 samples.

Results

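The Sp100 and Sp140 family region of mouse chromosome 1 was taken as the stretch from 84500001 to 88000000 in mm9 coordinates. Of the 348759 potential FAIRE peaks listed for the series, 1052 had their midpoint there. In FAIRE, short for formaldehyde-assisted isolation of regulatory elements, chromatin is crosslinked and sheared, and the DNA that stays free of protein is sequenced, which favours active promoters and enhancers. The series comprises 3 samples of wild type embryonic stem cells of the strain 129Sv-C57Bl/6, and which of them entered the list is not stated. These were an input of genomic DNA with no agent named, a FAIRE sample given DMSO for 16 h, and a FAIRE sample given 500 nM of the topoisomerase II inhibitor ICRF-193 for 16 h. Each FAIRE title joins replicates 1 and 2, so a group is 1 sample. The list assigns no interval to a sample. It was therefore read as 1 pooled list, DMSO was not compared with ICRF-193, and no test was made. The read depth behind the list is unknown.

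The region was chosen for its coverage by intervals. A stretch is called filled where at least 10 consecutive 20 kb bins each have at least 20% of their bases inside intervals. This picked out the first filled stretch, from 84940001 to 85340000, and the second filled stretch, from 87340001 to 87560000. Coverage, interval counts, widths and scores of these stretches are thus descriptions, and the coverage threshold fixes in advance that their bins are high.

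Sp100, Sp110 and Sp140 encode related nuclear proteins that are induced by interferon. Sp100 is a constituent of PML nuclear bodies, which are protein assemblies linked to intrinsic defence against viruses and to transcriptional control. Sp140 and Sp110 (also called Ipr1) are studied in immune cells, where the locus affects resistance of mice to intracellular bacteria. In the mouse the family is expanded by duplicated, Sp100-related sequence, and Csprs is a gene known from this repeated array.

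The genes were placed by order only, because the gene table at hand describes the assembly GRCm38.p6 and not mm9. There a run of 24 genes lies between Slc16a14, a member of the monocarboxylate transporter family, and Cab39, a scaffold protein of the LKB1 kinase complex. The run ends with Sp110, Sp140, Sp100, A630001G21Rik, Mir8096 and 9930111H07Rik in that order. The 24 genes comprise 10 protein-coding genes, 10 pseudogenes, 3 long noncoding RNAs and 1 microRNA. Most have only provisional names, among them A530032D15Rik, Gm7609 and C130026I21Rik. Csprs is assigned to chromosome 1 in the table but has no place within the run. Which interval lies at which gene was not analysed, so the family name of the region rests on its label.

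Promoter windows of 5 genes of this run recur in another gene of the run with few differences. They are shown because near-identical sequence bears on where a short read can be placed. Whether it affected any interval of the list was not tested. The following are the 250 bases before the transcript start in RefSeq (GRCm38.p6), each read 5′ to 3′ along its gene. Capitals mark a base that is substituted between aligned members of a set, and in A530032D15Rik also the run that C130026I21Rik lacks. Part of that run stands, in lower case, at the start of the Sp140 sequence too. These coordinates belong to GRCm38.p6 and cannot be set against the mm9 positions of the intervals. Sp140 is chr1:85600453-85600702 on the + strand, A530032D15Rik is chr1:85109854-85110103 on the - strand, and C130026I21Rik is chr1:85270567-85270816 on the - strand.
Sp140: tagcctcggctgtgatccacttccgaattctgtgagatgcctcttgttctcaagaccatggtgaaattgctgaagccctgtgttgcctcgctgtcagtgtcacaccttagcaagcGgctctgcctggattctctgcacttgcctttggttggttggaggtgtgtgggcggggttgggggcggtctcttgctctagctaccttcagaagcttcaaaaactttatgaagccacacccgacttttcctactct
A530032D15Rik: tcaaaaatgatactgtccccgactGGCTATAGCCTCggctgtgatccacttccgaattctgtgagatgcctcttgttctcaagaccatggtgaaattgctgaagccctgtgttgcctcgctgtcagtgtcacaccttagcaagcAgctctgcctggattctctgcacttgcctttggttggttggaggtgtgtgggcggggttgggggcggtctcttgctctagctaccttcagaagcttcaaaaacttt
C130026I21Rik: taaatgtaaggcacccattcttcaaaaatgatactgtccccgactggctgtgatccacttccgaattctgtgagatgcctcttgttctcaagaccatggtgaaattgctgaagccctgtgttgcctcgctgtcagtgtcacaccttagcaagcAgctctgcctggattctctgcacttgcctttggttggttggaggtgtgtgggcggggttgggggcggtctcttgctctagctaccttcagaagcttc

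Sp140 and A530032D15Rik aligned over 221 of these bases and were identical at 220. Sp140 and C130026I21Rik aligned over 205 and were identical at 204. Both provisional genes carried the same substitution against Sp140, G116A, counted from 1 at the 5′ end of the Sp140 sequence. A530032D15Rik and C130026I21Rik were identical at all 229 aligned bases and differed by a run of 12 bases that is present in A530032D15Rik and missing in C130026I21Rik.

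The promoters of Sp100 and Gm7609 form a separate set. Sp100 is chr1:85649764-85650013 and Gm7609 is chr1:85199361-85199610, both on the + strand of GRCm38.p6.
Sp100: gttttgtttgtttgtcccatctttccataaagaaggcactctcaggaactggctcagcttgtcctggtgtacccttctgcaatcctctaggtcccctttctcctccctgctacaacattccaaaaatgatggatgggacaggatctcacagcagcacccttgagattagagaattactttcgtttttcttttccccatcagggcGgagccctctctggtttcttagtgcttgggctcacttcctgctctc
Gm7609: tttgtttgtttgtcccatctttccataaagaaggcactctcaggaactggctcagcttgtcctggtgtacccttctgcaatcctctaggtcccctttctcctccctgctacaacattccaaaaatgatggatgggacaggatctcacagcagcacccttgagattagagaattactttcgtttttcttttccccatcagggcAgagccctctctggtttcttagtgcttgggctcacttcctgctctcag

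These were identical at 247 of 248 aligned bases, with the substitution G205A counted from the 5′ end of the Sp100 sequence. The table of promoters holds 14 windows of 300 bases for 12 genes of the run, its 2 outer genes included. Of these, 7 windows held a run of at least 50 bases that also occurs, on either strand, in a window of another gene elsewhere. Among all 32851 promoter windows of the mouse, 7.86% did. In 6 of the 7 windows the partner genes lay within the run itself. The exception was a window of Sp110, which shared such a run with 21 windows of other genes, none of them in the run. The other 6 all belong to the 2 sets above and include 2 overlapping windows of Sp100. Each match within a set is counted from both partners, so the 7 windows are not separate cases. The remaining Sp110 window and the windows of Slc16a14, Gm39669, A530040E14Rik, Gm2427, 9930111H07Rik and Cab39 shared no such run. The genes aligned were chosen after these matches were seen.

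Coverage along the region was strongly uneven. The 22 bins of the left flank (84500001 to 84940000) had a median of 4.37% of their bases inside intervals. In the 20 bins of the first filled stretch the median was 63.0%, with the lowest at 23.0% and the highest at 98.97%. In the 100 bins of the part between (85340001 to 87340000) 99 were empty, against 51% of all bins of the autosomes and chromosome X. This part was cut out between the filled stretches with the list already known, so this contrast is a description too. The 11 bins of the second filled stretch had a median of 61.5% and ranged from 21.3% to 95.7%. In the 22 bins of the right flank (87560001 to 88000000) the median was 1.80% and the highest 8.29%. Among the 128928 bins of the autosomes and chromosome X, 0.669% reached 20%, against 33 of the 175 bins here, and this share was fixed by the choice of the region.

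**Figure D1:**
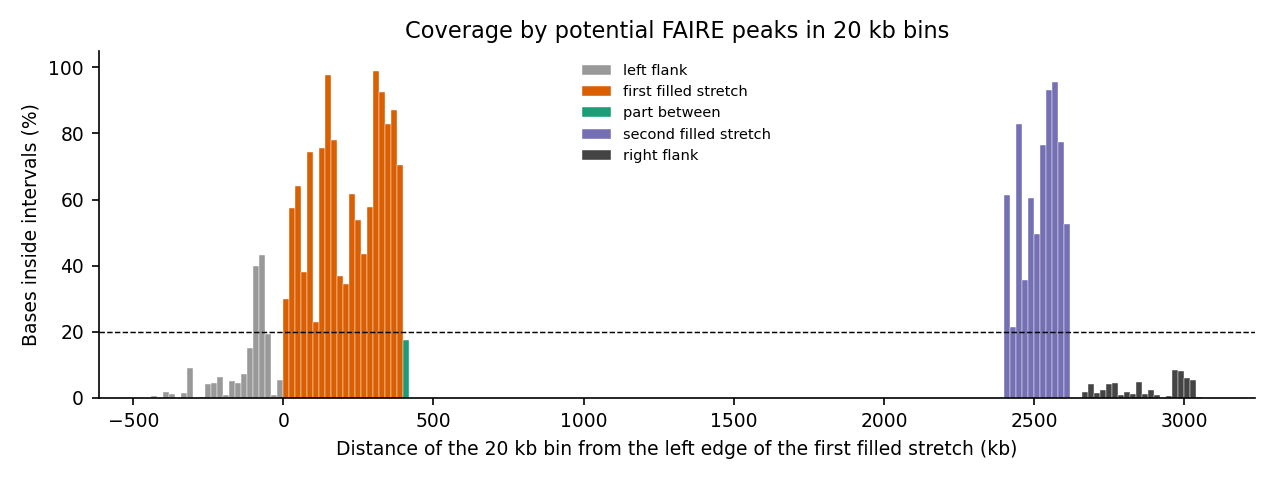
Bars give the percentage of bases inside intervals in each 20 kb bin, by distance from the left edge of the first filled stretch, with the parts of the region in colour and a dashed line at 20%. The 20 bins of the first and the 11 bins of the second filled stretch stand between 21.3% and 98.97%, and 99 of the 100 bins between them are empty.

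The filled stretches had similar overall coverage and differed in length. Intervals covered 252 kb of the 400 kb of the first, or 62.9%, and 141 kb of the 220 kb of the second, or 64.3%. Together with the rest of the region they made up 443 kb, which was 11.8% of the covered sequence of chromosome 1. The region held 3.14% of the intervals of that chromosome. The region thus had a larger share of the covered sequence of chromosome 1 than of its intervals. The filled stretches were also dense in number, at 92.8 and 126 intervals per 100 kb. The left and right flanks had 65.2 and 25.5. How far the coverage came from width or from number was not separated.

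Within the stretches, the bins covered to more than 90% held few intervals. In the first filled stretch the bin from 85240001 to 85260000 was covered to 98.97% with the midpoints of only 2 intervals, and the bin from 85080001 to 85100000 to 97.5% with 3. In the second filled stretch the bins from 87500001 and from 87480001 were covered to 95.7% and 93.3%, with 3 intervals each. The bin from 85260001 to 85280000, covered to 92.4%, held 5. Among the 5 fullest bins of each stretch the number ranged from 2 to 19 in the first and from 3 to 36 in the second, so high coverage was also reached with many intervals. The bin from 85180001 to 85200000 held 48 intervals, the most of the region, and was covered to 53.7%. Bins covered to at least 90% were rare in the genome, with 23 (0.0178%) on the autosomes and chromosome X, and 5 of these 23 lay in this region. The 200 kb from 19840001 to 20040000 of chromosome 8 held 7 of the 23. The least covered bins of the stretches were those from 85040001 to 85060000 (23.0%) and from 87360001 to 87380000 (21.3%). They lay just inside the threshold, while the bins from 84880001 (19.4%) and from 85340001 (17.6%) lay just outside it.

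The first filled stretch began and ended differently at its left and right edges. The last 2 bins before its left edge were covered to 0.895% and 5.28%, and the first 2 inside to 29.8% and 57.5%. Its first interval lay at 84950344 to 84950452, so the initial part of the first bin was empty. At the right edge coverage was 87.1% and 70.5% in the last 2 bins, 17.6% in the next bin and 0 in the one after. The 17.6% came from 5 intervals that continue the filled stretch, the highest-scoring of them at 85339338 to 85341263 (score 0.0396). The last of the 5 ended at 85343701.

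From there an empty stretch of 2.00 Mb followed, from 85343702 to 87343769. The second filled stretch began at its end, with a first interval at 87343770 to 87344219. The 2 bins before its left edge were empty and the first 2 inside were covered to 61.5% and 21.3%. At the right edge coverage went from 77.5% and 52.5% to 0 in the next 2 bins. The last interval lay at 87559066 to 87559237 and was followed by 40.9 kb without an interval, from 87559238 to 87600132. The only longer empty stretch in the flanks was one of 42.1 kb in the left flank, from 84637606 to 84679725.

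The 2.00 Mb stretch was the 4th longest without an interval on the autosomes and chromosome X, and 1 of 15 that reached 1 Mb. It was the only one of the 15 with filled sequence on both sides. Its filled sides were fixed by the choice of the region, and those of the other 14 were not. In the 200 kb to its left 70.1% of bases were covered, and in the 200 kb to its right 66.5%. Of the other 14, a stretch on chromosome 8 from 20038081 to 22043656 had 86.7% on its left and 2.43% on its right. The side with more coverage had a median of 0.510% over those 14. Whether reads could be aligned in the empty stretch, or whether mm9 has sequence there, was not tested. The absence of intervals is therefore not a measure of closed chromatin.

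Intervals in the filled stretches were wide. The median width was 138 bp in the first (interquartile range 8 to 474 bp) and 156 bp in the second (7 to 528 bp), against 41 bp in the list. Widths of at least 1 kb were found for 57 of 371 intervals in the first and 33 of 277 in the second, against 0.431% of all intervals. These 57 and 33 intervals held 78.0% and 64.6% of the bases in intervals of their stretch. Intervals no wider than 10 bp made up 29.6% and 30%, close to the 30.8% of the list. The share that was lower was that of widths from 11 to under 200 bp, with 25.9% and 23.5% against 49.3% outside filled stretches. Wide intervals cover more sequence by definition, so their share here follows in part from the choice by coverage. The median width in the other filled stretches of the genome was 150.5 and 81.5 bp on chromosome 4, 1097.5 and 171 bp on chromosome 8, and 43.5 bp on chromosome 17. The medians of 138 and 156 bp lie within that range.

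A width of 3451 bp or more put an interval among the 100 widest outside chromosome Y and the mitochondrial genome, and 20 of those 100 lay in this region, 14 in the first and 6 in the second filled stretch. The 5 other filled stretches together held 29. The region is 0.136% of the bins. The widest was in the second filled stretch, at 87479200 to 87498155 (18956 bp), and ranked 9th on the autosomes and chromosome X. It was followed there by intervals at 87500329 to 87508587 (8259 bp) and 87516807 to 87524250 (7444 bp). The widest of the first filled stretch were at 85265763 to 85283539 (17777 bp), 85239256 to 85254772 (15517 bp) and 85076172 to 85089894 (13723 bp).

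After intervals within 500 bp of each other were joined, long blocks appeared in both stretches. The first had 9 blocks of at least 10 kb, from 11.2 to 50.03 kb, which took up 54.1% of its length. The longest ran from 85064038 to 85114071, held 39 intervals and was 93.1% filled by them. Towards the right end, 3 blocks from 85227535 to 85263518 (36.0 kb), 85265763 to 85296234 (30.5 kb) and 85301035 to 85330559 (29.5 kb) followed each other with short breaks and were 94.7% to 98.6% filled. The second had 6 such blocks, from 12.4 to 37.2 kb, which took up 55.4%. Its 2 longest adjoined each other, from 87474229 to 87498155 (23.9 kb) and 87499213 to 87536375 (37.2 kb). In the flanks the longest joined block was 7.18 kb.

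Breaks without intervals separated the blocks. The first filled stretch had 8 breaks of at least 5 kb, the longest of 13.8 kb each at 85213720 to 85227534 and 85043960 to 85057759. The second had 2, at 87364627 to 87375407 (10.8 kb) and 87412278 to 87419139 (6.86 kb).

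The score of an interval is the authors' own value, on a scale that no label or header states. The median score was 0.0157 in the first filled stretch and 0.0158 in the second, against 0.0137 in the list. The lowest score on the autosomes and chromosome X was 0.0129. High-score intervals, the top 10% of the list, made up 92 of 371 in the first (24.8%, exact binomial 95% interval 20.5 to 29.5%) and 63 of 277 in the second (22.7%, 17.9 to 28.1%). These intervals cover counting error only and take neighbouring peaks as independent. In the flanks the share was 5.23% (2.95 to 8.47%) on the left and 8.04% (3.74 to 14.7%) on the right, below or close to the 10.0% of the list. In the other filled stretches of the genome it was 22.5% and 19.3% on chromosome 4, 53.1% and 27.3% on chromosome 8, and 8.55% on chromosome 17. A share above that of the list was thus found in most filled stretches and is not particular to this region.

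**Figure D2:**
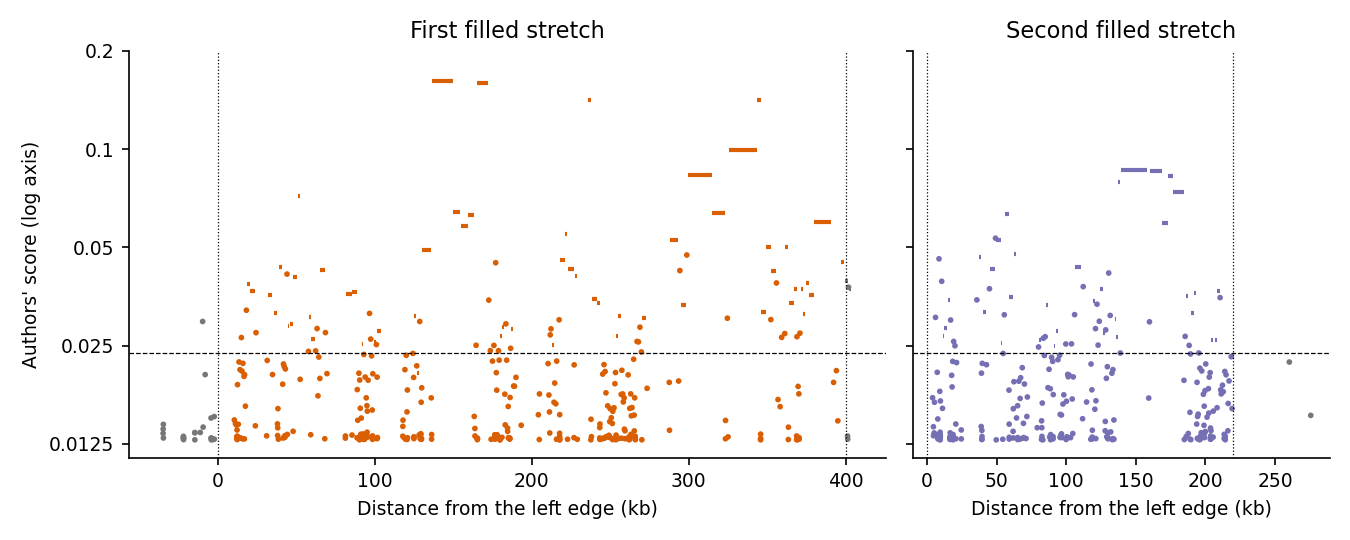
Each interval is drawn at the authors' score (log axis) by its distance from the left edge of its filled stretch, with a line for its extent, a point where it is under 1 kb, grey outside the stretch, dotted lines at the edges and a dashed line at the top 10% of the list. The highest scores belong to a few intervals, up to 0.162 in the first and 0.0864 in the second filled stretch, and narrow low-score intervals are grouped between them.

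The highest scores of the first filled stretch belonged to 3 intervals at 85076172 to 85089894 (0.162), 85105319 to 85112099 (0.160) and 85283545 to 85285831 (0.142). In the second filled stretch the highest were at 87479200 to 87498155 (0.0864), 87500329 to 87508587 (0.0859) and 87513237 to 87516716 (0.0826). The top score of the first was 12.6 times the lowest score on the autosomes and chromosome X, and that of the second 6.72 times. Their ranks by score in the list were 197 and 385. Thus 196 intervals scored above the highest of the region, and none of the 100 highest-scoring intervals on the autosomes and chromosome X lay in it, although 20 of the 100 widest did.

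Height and width were also separated in the right flank. Its highest-scoring interval, at 87901012 to 87901335, was 324 bp wide and scored 0.0978. That was above the 0.0864 of the 18956 bp interval in the second filled stretch. No interval of the right flank reached 1 kb, and its widest was 677 bp. In the left flank the highest score was 0.0466, at 84856860 to 84858358 (1499 bp). This interval lies in a smaller cluster outside the first filled stretch, where the bins from 84840001 and 84860001 were covered to 39.9% and 43.4%. The cluster is separated from the first filled stretch by the bin from 84900001, covered to 0.895%.

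From 200 bp upwards, intervals in the filled stretches had lower median scores than intervals of the same width class outside any filled stretch. For widths of 500 to under 1000 bp the median score was 0.0251 in the first and 0.0248 in the second, against 0.0324 outside. The other filled stretches of the genome had 0.0249 in this class, and from 200 to under 500 bp they stood at 0.89 times the outside median, with 0.91 and 0.89 times here. The lower score at these widths was thus also found in the other filled stretches when pooled. For 2000 to under 5000 bp it was 0.0379 over 28 intervals and 0.0429 over 11, against 0.0643 over 111 outside, or 0.59 and 0.67 times. The other filled stretches had 0.98 times in this class. For 5000 bp and more it was 0.0734 over 8 and 0.0859 over 3, against 0.188 over 25 outside, or 0.39 and 0.46 times, with 0.83 times over 11 intervals in the other filled stretches. Below 200 bp the medians were 0.9994 to 1.006 times those outside. Score and width rise together in this list, and no test was made of these medians.

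**Figure D3:**
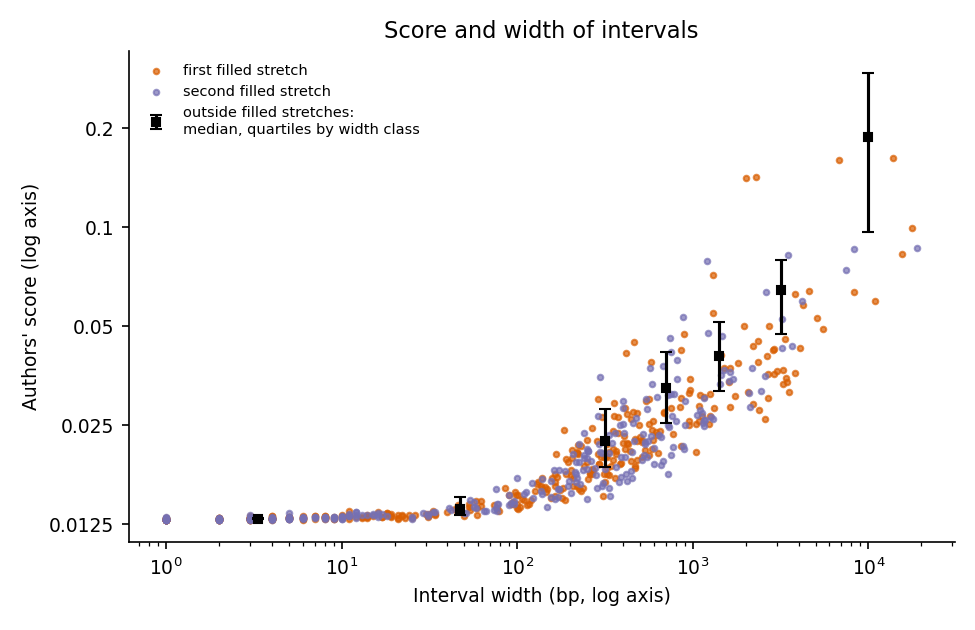
Points give the authors' score against width (both axes logarithmic) for the intervals of the first and second filled stretch, and black squares with bars give the median and quartiles by width class outside filled stretches. From 500 bp upwards most points lie below the squares, with medians of 0.0379 and 0.0429 against 0.0643 at 2000 to under 5000 bp.

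Set beside the 5 other filled stretches of the genome, those of chromosome 1 ranked below most in number of intervals and above most in coverage. They had 92.8 and 126 intervals per 100 kb. The stretch on chromosome 17 had 278 per 100 kb at a coverage of 56.7%, and those on chromosome 4 had 161 per 100 kb at 55.8% and 46.4%. The stretch on chromosome 8 from 71940001 to 72140000 was close to the second here in number, with 135.5 per 100 kb, at a coverage of 44.9%. Of the 5, only the stretch on chromosome 8 from 19840001 to 20040000 had fewer intervals for its length, and it also adjoins an empty stretch. It had 32.0 intervals per 100 kb and was covered to 86.7%. Its bins had a median of 95.1%, against 63.0% and 61.5% here, and intervals of at least 1 kb held 98.2% of its bases in intervals.

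Scores placed the chromosome 1 stretches apart from the stretch of chromosome 8 from 19840001 to 20040000, but not from the others. The median score of that stretch was 0.0534, and its highest score 0.304. The median was 0.0172 in the other stretch of chromosome 8, 0.0156 and 0.0144 on chromosome 4 and 0.0138 on chromosome 17. It was 0.0157 and 0.0158 on chromosome 1. The highest scores of those 4 were 0.130, 0.153, 0.218 and 0.105, against 0.162 and 0.0864 on chromosome 1. For widths of 1000 to under 2000 bp the median score was 0.0307 and 0.0302 in the chromosome 1 stretches, 0.0301 on chromosome 17, 0.0423 to 0.0474 in 3 stretches on chromosomes 4 and 8, and 0.0686 over 6 intervals at 19840001 to 20040000 of chromosome 8. In this class the low score was thus shared with chromosome 17. The pooled other filled stretches stood at 1.04 times the outside median, against 0.76 and 0.75 here. From 200 to under 1000 bp the low score was shared with the pooled others and is not particular to the Sp100 and Sp140 family region. At 2000 to under 5000 bp the pooled others stood at 0.98 times, against 0.59 and 0.67 here. From 5000 bp they stood at 0.83 times, against 0.39 and 0.46. The widest interval of the chromosome 17 stretch was 2771 bp. Whether repeated sequence, extra copies or many separate open sites gave the coverage was not tested, and none of the values is a measure of open chromatin at a gene of the family.

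**Figure D4:**
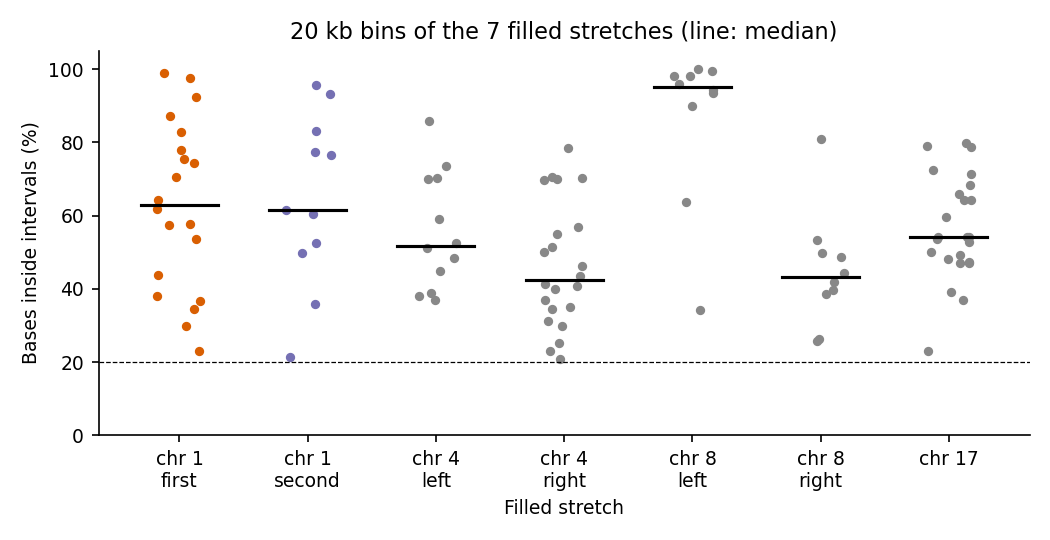
Points give the percentage of bases inside intervals for each 20 kb bin of the 7 filled stretches, left and right within a chromosome by position, with a line at the median and a dashed line at the 20% that chose them. The chromosome 1 stretches have medians of 63.0% and 61.5%, above the others apart from the left stretch of chromosome 8 at 95.1%.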

How the data were processed

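One list of intervals of the whole series was analysed. Bowtie (no version) and the build mm9 are named in the submitters' processing notes, and the list is named for F-Seq, a program that lists stretches where a smoothed read density passes a threshold. The following were not stated there: F-Seq settings, read filters, the treatment of reads with several matches, the role of the input and the samples behind the intervals. The list has 5 columns and no header, and the score column is the authors' deposited value for each interval. No depth is given, so no precision can be stated for an interval. Groups came from the titles. No comparison between samples and no test was possible.

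Intervals were assigned by midpoint and coverage was clipped to each 20 kb bin. Starts are printed counted from 1. Python 3.11.15, pandas 2.3.3, numpy 2.4.6, scipy 1.17.1 and Biopython 1.88 were used, and the procedures were tested on simulated intervals. Local alignments of promoters scored 1 for a match, -1 for a mismatch, -2 to open and -0.5 to extend a gap. Named intervals were, in each filled stretch, the 3 highest-scoring, the 3 widest, the first and the last, and elsewhere the highest-scoring and the longest empty stretches. The members, lists and alternatives were chosen with earlier results of these data known. Alternatives were score, width and coverage thresholds, joining within 500 bp, bin size and start, and edges. Runs of 30 and 100 shared promoter bases were added after seeing the data.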

Additional observations from a re-analysis of the deposited data

How the results depend on the processing

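The 13 results were recomputed under 59 alternative settings in all. The value kept to its 95% interval or to a factor of 1.5 in 34 cases, moved in 25 and changed direction in 0. Coverage of both filled stretches, the 33 bins covered to at least 20%, the 2.00 Mb empty stretch and the 7 promoter windows with a shared run stayed within 1.5 times under each alternative run. Among all promoter windows of the mouse, 11.7% shared a run of 30 bases and 4.65% a run of 100, against 7.86% at 50. Most of the 7 windows belong to the near-identical sets, so their constant number was largely fixed in advance. The number of intervals, 1052, was 587 from the median score upwards, 182 in the top 10%, 226 after joining within 500 bp and 371 at a width of at least 200 bp, since each setting removes or merges intervals. The median score of the first filled stretch became 0.0212, 0.0316, 0.0227 and 0.0252 under these settings, and that of the second 0.0207, 0.0311, 0.0232 and 0.0236. Keeping higher-scoring intervals, or the highest score of joined ones, raises a median score by construction. Wider intervals also score higher in this list. List medians under these settings are not given, so these moves say nothing particular to the stretches. The high-score share of the first became 41.3% at or above the median score, 46.3% after joining, 55.2% at a width of at least 200 bp and 14.6% for the top 5%, and that of the second 37.1%, 46.9%, 48.8% and 12.6%. The share in the list also changes under such settings. It is 5% by construction for the top 5%, and it is not given for the other settings. The larger shares therefore do not show a larger excess over the list. Widths of at least 200 bp made up 44.5% and 46.6% of the intervals of the first and second, against 20.1% of the list. Covered bases of the left flank, 34201, became 13329 in the top 10% and 52398 after joining. Those of the right flank, 12089, became 3639 in the top 10% and 7583 at a width of at least 200 bp. The part between, with 3524 covered bases, had 0 when its edges were moved in by 20 kb. No paired analysis was possible because no interval is tied to a sample, and for the same reason no replicate was left out. Without a known depth, an empty bin cannot be read as closed chromatin.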
